A study of Homo sapiens with 18 samples.

Results

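The genes described here are 10 enzymes of purine nucleotide synthesis in U2OS-MycER cells: PRPS2, PPAT, GART, PFAS, PAICS, ADSL, ATIC, IMPDH1, IMPDH2 and GMPS. They were taken by symbol from the 23399 genes of the expression table, whatever their values, and all 10 passed the filter on low values. U2OS is a human osteosarcoma cell line. In U2OS-MycER cells, a retrovirus has added a fusion of Myc with part of the estrogen receptor (MycER), which 4-hydroxytamoxifen (OHT) switches on.

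The 18 RNA-seq libraries fall into 8 groups, all of U2OS-MycER cells, so that the control cells also carry the fusion gene. Cells received siRNAs against Renilla luciferase (siCtrl) or against RAD21, a subunit of the cohesin ring (siRAD21, a pool of siRNAs), together with 400 nM OHT or its ethanol vehicle, and RNA was taken 24 or 48 h later. At 48 h there are 3 siCtrl and 3 siCtrl OHT libraries, and the other groups hold 2 libraries apiece. The groups compare active with inactive MycER, RAD21 silencing with its control, and both together.

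Purine nucleotides are built step by step on a ribose phosphate. PRPS2 makes the activated ribose phosphate (PRPP), PPAT commits it to the pathway, and GART, PFAS, PAICS, ADSL and ATIC assemble the ring up to inosine monophosphate (IMP). IMPDH1 and IMPDH2 oxidise IMP and GMPS then makes GMP, while ADSL acts again on the branch to AMP. Glycine and folate-borne carbon enter the ring, and growing cells need the products for RNA, DNA and energy. Genes of nucleotide synthesis are well-known targets of Myc, which binds the sequence CACGTG (the E-box) with its partner Max.

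Start sites came from RefSeq (GRCh37, the build of hg19), which gave windows from 250 bases before to 50 bases after a start site for 8 of the 10 genes (not for ADSL and IMPDH2). The E-box CACGTG, which reads the same on both strands, was found in windows of 3 of these 8 genes, namely PPAT, PAICS and ATIC. It was present in 7.3% of all 35116 windows and in 8.8% of the 27305 genes that have a window. The related sequence CACGCG, searched on both strands, was found in the window of only PFAS among the 8 genes, and in 11.4% of all windows. On the other strand it reads CGCGTG, and the PFAS window holds no E-box that it could overlap. These matches are letters in a window and were not tested for binding. The windows of GART, IMPDH1, GMPS and PRPS2 held neither sequence, and bases outside the windows were not searched. The stretches around the matches are shown because they hold every match in the windows of these genes. They run 5′ to 3′ on the strand of the gene, with the match in capitals.
PPAT, chr4:57301946-57301975, minus strand, 182 bases before the start: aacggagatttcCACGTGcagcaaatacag
PAICS, chr4:57301946-57301967, plus strand, 40 bases after the start: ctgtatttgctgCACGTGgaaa
PFAS, chr17:8152578-8152607, plus strand, 17 bases before the start: ctgcccgcggcgCACGCGgatgacgtaaca
ATIC, chr2:216176724-216176753, plus strand, 46 bases before the start: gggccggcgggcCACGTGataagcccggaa
ATIC, chr2:216176799-216176828, plus strand, 29 bases after the start: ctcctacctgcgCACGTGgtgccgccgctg

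PPAT and PAICS are neighbours that are read in opposite directions. PPAT starts at position 57301781 on the minus strand of chromosome 4 and PAICS at 57301918 on the plus strand, so 136 bases lie between these starts. This is 1 of 3 PAICS starts with a window, chosen as the nearest to that of PPAT. The others are at 57276673 and 57302426, and their windows hold no E-box. The E-box of the PPAT stretch and that of the PAICS stretch are the same bases of the genome. The 136 bases between the starts, printed on the plus strand because these genes share them, hold neither motif.
Between PPAT and PAICS, chr4:57301782-57301917: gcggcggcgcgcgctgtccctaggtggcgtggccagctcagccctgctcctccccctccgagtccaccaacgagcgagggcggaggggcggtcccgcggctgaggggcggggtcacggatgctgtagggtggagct

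Expression is given as deposited, in eRPKM, which are exonic reads scaled to exon length and to sequencing depth. Depths recovered from the values were 9647501 to 12678599 reads per library, and the 10 genes had between 282 reads (ATIC) and 3632 reads (PAICS) in a library. Changes are log2 fold changes of eRPKM + 0.5, which slightly understates those of low genes, from 1 limma model of all 18 libraries with a mean for every group. Genes averaging 1 eRPKM or more over the libraries, 14993 in all, were tested, with Benjamini-Hochberg adjustment over all of them in each comparison. To be called, a gene had to pass an adjusted p of 0.05 and a change of 0.5 on the log2 scale, up or down. Errors of changes are standard errors (SE) of the fit. The methods describe the libraries of a group as biological replicates, without saying how they were raised, so p-values measure only the spread between these samples. The siRAD21 OHT libraries at 48 h differed by less than sampling noise (chi-square per gene 0.983 over 11822 genes, against 1.073 to 4.492 for the other pairs). They are counted as 1 sample in means, with no SD, and both stay in the fit.

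RAD21 was at 70.7 eRPKM in siCtrl and 18.4 in siRAD21 cells at 24 h, and at 93.1 and 11.2 eRPKM at 48 h, so the libraries match their siRNA labels. The row of MYC, in which reads of the Myc part of MycER may also fall, was at 52.3 eRPKM in siCtrl, 44.9 in siCtrl OHT, 57.0 in siRAD21 and 34.4 in siRAD21 OHT cells at 48 h. At 24 h it was at 53.4, 41.1, 44.7 and 30.02 eRPKM in the same order. MYC was lower with siRAD21 at 24 h (log2 fold change -0.25, adjusted p = 0.0146) and had 0.12 at 48 h (adjusted p = 0.109), and with OHT in siRAD21 cells at 48 h it was called lower (-0.72, adjusted p = 9.23e-07). Of the osteoblast markers, SPARC (76.4 eRPKM), COL1A1 (40.4), RUNX2 (7.48) and ALPL (2.90) were present in siCtrl cells at 48 h. SP7 (0.295) and COL1A2 (0.0606) were nearly absent.

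The levels of the 10 genes in siCtrl cells at 48 h spanned the range from 13.6 to 107 eRPKM. IMPDH2 was the highest of them with 107 ± 2.58 eRPKM (mean ± SD, n = 3), followed by PAICS with 74.6 ± 1.61 and ADSL with 64.3 ± 2.85 eRPKM. GMPS (41.1 ± 1.24), GART (40.1 ± 1.81), PPAT (40.05 ± 2.06) and IMPDH1 (39.0 ± 0.858) came next, and the libraries of each neighbouring pair among these 4 overlapped. PRPS2 (33.7 ± 2.18), PFAS (23.6 ± 1.30) and ATIC (13.6 ± 1.84 eRPKM) followed without overlap between neighbours. Of the IMPDH isoenzymes, IMPDH2 was the more abundant at 24 and 48 h in every group.

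**Figure D1:**
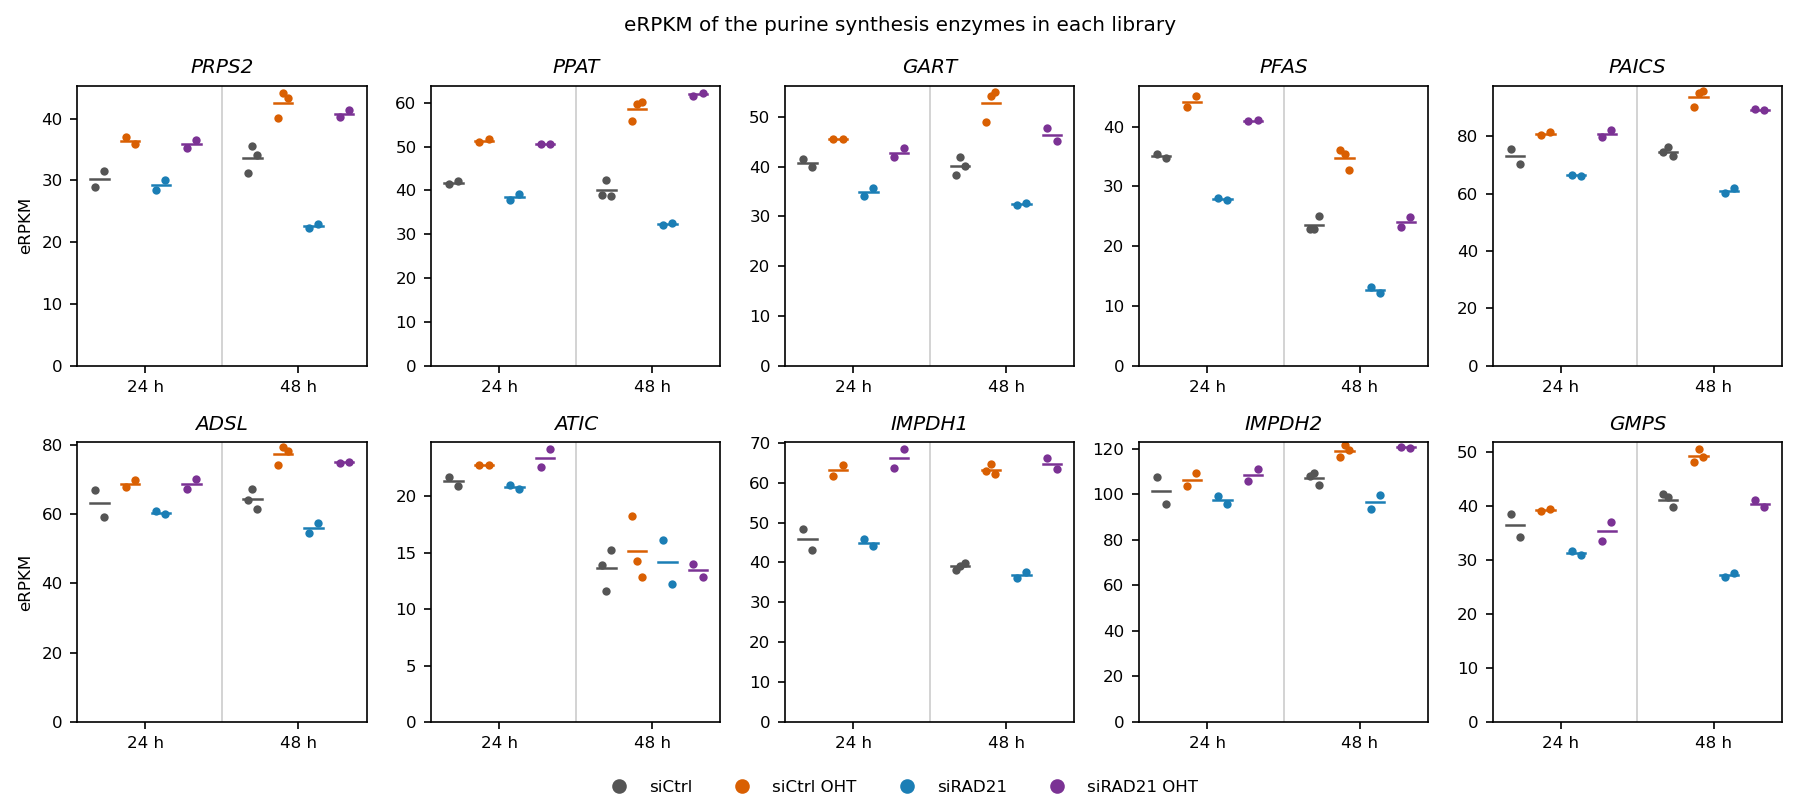
eRPKM of each of the 10 genes (y axis, from 0) in every library at 24 and 48 h; points are libraries and bars are group means. OHT libraries (orange, purple) lie above the matching libraries without OHT at 48 h in every panel but ATIC, and PFAS falls furthest with siRAD21, to 12.1 and 13.2 eRPKM at 48 h.

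With OHT in siCtrl cells at 48 h, 9 of the 10 genes had an adjusted p below 0.05, all of them higher, where 26.1% of all genes tested were higher by this criterion. Of these, PPAT, PFAS and IMPDH1 were called (3 of 10, against 7.78% of all genes called higher). The median log2 fold change of the 10 genes was 0.33, and that of all genes tested was -0.013. With quantile normalization only IMPDH1 was called (0.57), and PPAT and PFAS had 0.43 and 0.46. In bulk samples, fewer cells of a kind and less RNA per cell cannot be told apart, here and below.

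PPAT, which catalyses the committed step, was at 38.9, 42.4 and 38.8 eRPKM in the siCtrl libraries and at 55.8, 59.8 and 60.2 eRPKM in the siCtrl OHT libraries. Every OHT library was above every control library. Its change was 0.54 (SE 0.039, adjusted p = 7.21e-08).

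PFAS, which adds the nitrogen of glutamine to the growing ring, stood at 22.9, 22.8 and 25.1 eRPKM without and at 36.1, 35.5 and 32.7 eRPKM with OHT. The groups did not overlap, and the log2 fold change was 0.55 (SE 0.049, adjusted p = 5.31e-07).

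IMPDH1, the less expressed of the enzymes that take IMP towards GMP, changed most. It had 38.1, 39.0 and 39.8 eRPKM in siCtrl and 63.0, 64.7 and 62.2 eRPKM in siCtrl OHT libraries. The change was 0.69 on the log2 scale (SE 0.045, adjusted p = 2.80e-08), or 1.62-fold, and within each group the libraries lay close together.

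The other 6 genes with an adjusted p below 0.05 changed by less than the threshold of 0.5. GART, which carries several steps of the middle of the pathway on a single protein, had a change of 0.39 (adjusted p = 9.04e-06). PRPS2, which supplies PRPP, had 0.33 (adjusted p = 9.25e-05) and PAICS, the partner of PPAT across the shared stretch, also had 0.33 (adjusted p = 3.42e-06). ADSL and GMPS both had 0.26, with adjusted p of 3.04e-04 and 3.71e-04. IMPDH2 had 0.15 (adjusted p = 0.0106), and its 95% interval of 0.056 to 0.25 lies below that of IMPDH1, 0.60 to 0.79, although the difference between the isoenzymes was not tested. In all 9 genes the OHT libraries lay above the siCtrl libraries without overlap, which held for 27.3% of all genes tested.

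ATIC, which closes the ring to IMP, was the exception. Its libraries had 13.9, 11.6 and 15.3 eRPKM without and 18.3, 14.3 and 12.8 eRPKM with OHT, and these ranges overlap. Its change was 0.14 (95% interval -0.12 to 0.40, adjusted p = 0.357). ATIC also varied most between libraries of a group, with a residual SD of 0.170 on the log2 scale, larger than that of 83.9% of the genes tested. The other 9 genes had 0.037 to 0.065 against a median of 0.090 over all genes tested. Without siCtrl OHT 48 h replicate 1 the value was -0.00043, so its direction rests on that library.

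Of the 5 markers of other cell types, 2 were expressed highly enough to be tested, and EPCAM, a surface protein of epithelia, was called higher with OHT (log2 fold change 1.22). The summed eRPKM of the 5 was 5.93 to 6.79 in siCtrl and 12.5 to 14.96 in siCtrl OHT cells at 48 h, and 4.44 to 5.90 in siRAD21 and 8.31 to 8.44 in siRAD21 OHT cells. Of the rest, ALB was at 0 in every OHT library at 48 h, and PTPRC and PECAM1 stayed below 1 eRPKM in each 48 h group mean. Of the 6 osteoblast markers, 4 were tested and COL1A1 and RUNX2 were called lower with OHT (-0.91 and -0.84). ALPL, another of the 4, had a higher value with OHT (0.26), which did not pass an adjusted p of 0.05. The summed eRPKM of the 6 was 115 to 149 in siCtrl and 88.5 to 112 in siCtrl OHT cells. In siRAD21 OHT against siRAD21 cells at 48 h COL1A1 and RUNX2 were also called lower (-1.84 and -1.33), the median of the 4 was -0.88, and the sum of the 6 was 151 to 156 in siRAD21 and 95.9 to 96.8 in siRAD21 OHT cells. EPCAM was called higher there as well (1.05). CDH1, the other tested marker of other cell types and also epithelial, went the other way there, from 1.14 to 0.713 eRPKM (-0.45). It had an adjusted p below 0.05 in limma but was not called. With OHT in siCtrl cells at 48 h CDH1 had 0.31 and did not pass an adjusted p of 0.05. The part of these shifts in the changes of the purine enzymes, in either comparison, was not tested. Proliferation genes differed little with OHT in siCtrl cells at 48 h: of 10, none was called higher and none lower, 4 had an adjusted p below 0.05 in the higher direction and 1, MKI67, in the lower (log2 fold change -0.26).

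**Figure D2:**
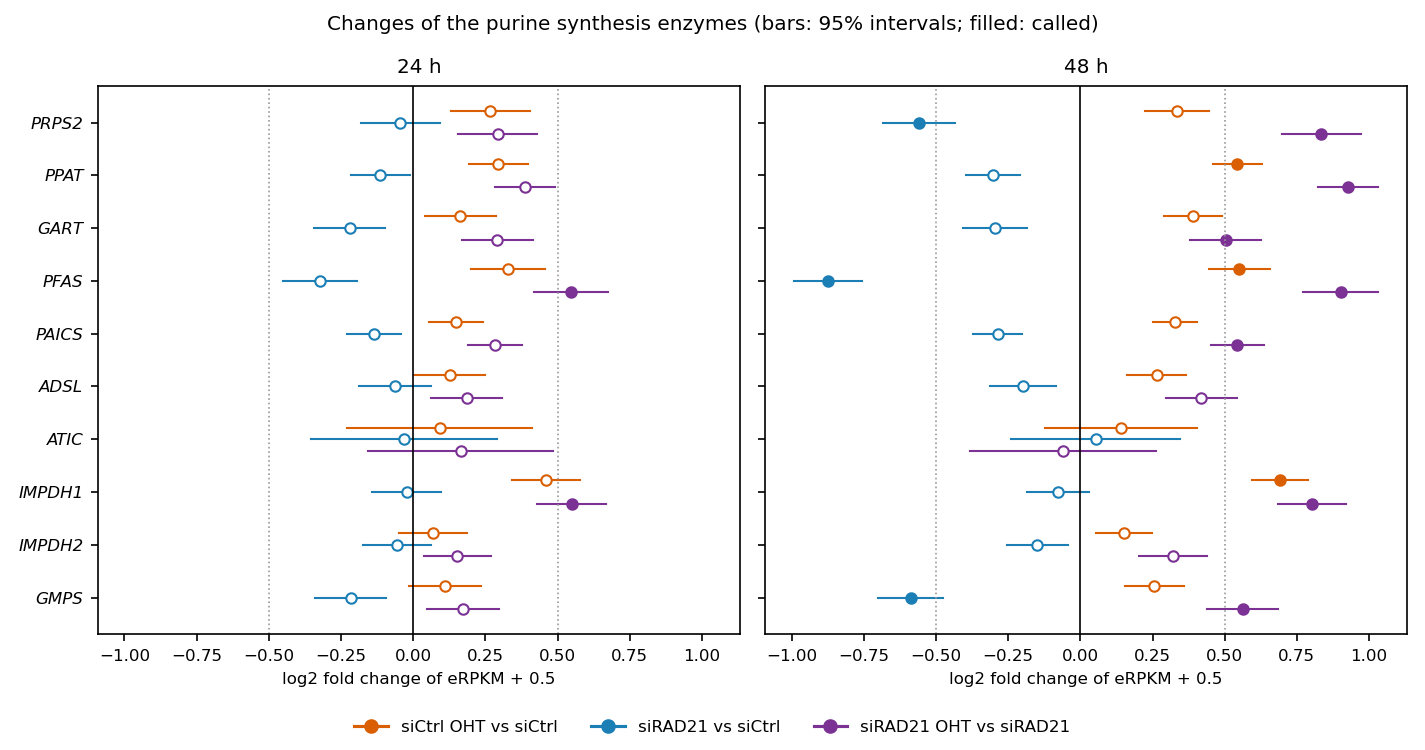
Log2 fold change of eRPKM + 0.5 (x axis) of each gene in 3 comparisons at 24 h (left) and 48 h (right); bars are 95% intervals, filled points passed both thresholds and dotted lines mark 0.5 and -0.5. At 48 h the siRAD21 points (blue) lie left of 0 except for ATIC (0.05), and the siRAD21 OHT against siRAD21 points (purple) lie right of 0 except for ATIC (-0.06).

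With RAD21 silencing, most of the 10 genes were lower. In siRAD21 against siCtrl cells at 48 h, 8 of the 10 genes had an adjusted p below 0.05, all lower, where 30.5% of all genes were lower by this criterion. PFAS, GMPS and PRPS2 were called lower (3 of 10, against 11.2% of all genes). The median was -0.29, and that of all genes tested -0.014. The libraries did not overlap for 9 of the 10 genes, all lower, as for 36.7% of all genes tested.

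PFAS fell most, from 22.9, 22.8 and 25.1 eRPKM to 13.2 and 12.1 eRPKM. Its change was -0.87 (SE 0.055, adjusted p = 1.28e-08), which leaves 0.546 of the control level. GMPS, which turns xanthosine monophosphate into GMP, was at 42.1, 41.6 and 39.7 eRPKM in siCtrl and at 26.9 and 27.6 eRPKM in siRAD21 libraries. It changed by -0.59 (SE 0.052, adjusted p = 4.09e-07). PRPS2 went from 31.3, 35.6 and 34.1 eRPKM to 22.3 and 23.0 eRPKM, a change of -0.56 (SE 0.058, adjusted p = 1.79e-06). In none of the 3 genes did a siRAD21 library reach the lowest siCtrl library. They stand at the supply of PRPP, in the middle of the ring assembly and at the last step to GMP.

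Among the other genes, PPAT and GART both had a change of -0.30 (adjusted p = 4.12e-05 and 2.49e-04) and PAICS had -0.29 (adjusted p = 2.70e-05). ADSL had -0.20 (adjusted p = 0.00509) and IMPDH2 had -0.15 (adjusted p = 0.0198). IMPDH1, the gene that changed most with OHT, had -0.08 with a 95% interval of -0.19 to 0.031 (adjusted p = 0.203), and with quantile normalization the value was 0.011. ATIC had 0.05, with a 95% interval of -0.24 to 0.35 (adjusted p = 0.762), and -0.14 without siRAD21 48 h replicate 1 or -0.052 without siCtrl 48 h replicate 2.

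The proliferation genes moved with RAD21 silencing as well. All 10 had an adjusted p below 0.05 and were lower, with a median of -0.47, and MCM2, MCM5, CDK1 and AURKB, named after their values were seen, were called. Their summed eRPKM was 612 to 630.0 in siCtrl, 439 to 455 in siRAD21 and 566 to 569 in siRAD21 OHT cells at 48 h. The part of a changed share of cycling cells in the purine enzymes was not tested.

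When the silenced cells also received OHT, 9 of the 10 genes had an adjusted p below 0.05 at 48 h against siRAD21 cells, all higher, where 30.5% of all genes were higher by this criterion. Of these, 7 were called, namely PRPS2, PPAT, GART, PFAS, PAICS, IMPDH1 and GMPS, against 12.4% of all genes. The median was 0.55, and that of all genes tested -0.016. The siRAD21 libraries are the same ones that showed the fall against siCtrl, so the comparisons share them and are not independent. With quantile normalization 4 of the 10 were called, without GART (0.34), PAICS (0.31) and GMPS (0.42).

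PPAT and PFAS had the highest values in this comparison, and their order was not stable: without siRAD21 48 h replicate 1 PPAT had 0.916 and PFAS 0.958. PPAT was at 32.1 and 32.6 eRPKM in siRAD21 and at 61.5 and 62.3 eRPKM in siRAD21 OHT libraries, a change of 0.93 (SE 0.048, adjusted p = 3.34e-09). PFAS went from 13.2 and 12.1 to 23.3 and 24.8 eRPKM, a change of 0.90 (SE 0.060, adjusted p = 2.94e-08). PRPS2 went from 22.3 and 23.0 to 40.2 and 41.4 eRPKM, a change of 0.84 (SE 0.063, adjusted p = 1.01e-07). In each of the 3 genes the groups did not overlap, as in 9 of the 10 genes, all higher, and in the higher direction in 40.7% of all genes tested.

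IMPDH1 had 36.1 and 37.7 eRPKM without and 66.1 and 63.4 eRPKM with OHT, a change of 0.80 (adjusted p = 4.00e-08). The values of GMPS were 26.9 and 27.6 against 41.1 and 39.8 eRPKM, or 0.56 (adjusted p = 1.63e-06). PAICS rose by 0.54 (adjusted p = 1.52e-07) and GART by 0.50 (adjusted p = 4.46e-06). GART lies at the threshold, with 0.464 without siRAD21 OHT 48 h replicate 1, 0.495 without siRAD21 48 h replicate 1 and 0.498 with a pseudocount of 1. ADSL (0.42) and IMPDH2 (0.32) had adjusted p of 2.66e-05 and 1.77e-04. ATIC had -0.06 (95% interval -0.38 to 0.26, adjusted p = 0.740), and its libraries, at 16.1 and 12.2 against 14.0 and 12.9 eRPKM, overlapped. Without siRAD21 48 h replicate 1 it had 0.13.

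The change with OHT was then compared between siRAD21 and siCtrl cells (the siRNA by OHT interaction). At 48 h it was larger in siRAD21 cells for 5 of the 10 genes at an adjusted p below 0.05, which held for 10.0% of all genes. These were PRPS2 (difference of log2 fold changes 0.50, SE 0.082, adjusted p = 0.00105), PPAT (0.38, adjusted p = 9.57e-04), PFAS (0.35, adjusted p = 0.00704), GMPS (0.31, adjusted p = 0.0120) and PAICS (0.22, adjusted p = 0.0164). Only PRPS2 was past 0.5 (1 of 10, against 3.33% of all genes), by so little that a pseudocount of 1, centring on the median, quantile normalization or leaving out any of 5 libraries put it below, with values of 0.46 to 0.49 and adjusted p of 5.33e-04 to 0.00801. The 5 libraries are siCtrl 48 h replicates 2 (0.46) and 3 (0.489), siCtrl OHT 48 h replicate 1 (0.46), siRAD21 48 h replicate 1 (0.478) and siRAD21 OHT 48 h replicate 2 (0.48).

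The remaining 5 genes did not pass the test of this difference. IMPDH2 had 0.17 (95% interval 0.017 to 0.32, adjusted p = 0.116). With the removal of PCR duplicates undone, as described further on, IMPDH2 had 0.21 (adjusted p = 0.0419), and 6 of the 10 genes then passed an adjusted p of 0.05. As deposited, ADSL had 0.15 (-0.0051 to 0.31, adjusted p = 0.171) and GART 0.11 (-0.044 to 0.27, adjusted p = 0.314). IMPDH1, with changes of 0.69 and 0.80 in siCtrl and siRAD21 cells, had 0.11 (-0.043 to 0.26, adjusted p = 0.314). ATIC had -0.20 with a wide interval of -0.62 to 0.21 (adjusted p = 0.510).

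**Figure D3:**
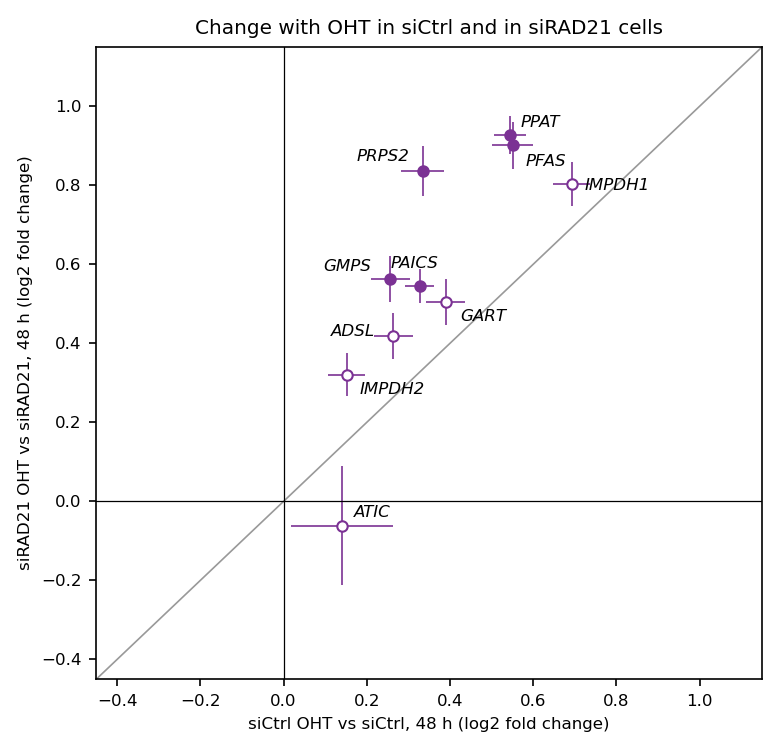
Log2 fold change with OHT at 48 h in siCtrl cells (x axis) and in siRAD21 cells (y axis) for the 10 genes; bars are standard errors, the diagonal marks equal changes, and filled points have an adjusted p below 0.05 for the difference. PRPS2, PPAT, PFAS, GMPS and PAICS, the filled points, lie above the diagonal, with PRPS2 furthest from it (0.33 against 0.84).

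The level reached with silencing and OHT together differed from gene to gene. Against untreated siCtrl cells at 48 h, PPAT (log2 fold change 0.62, adjusted p = 2.63e-08) and IMPDH1 (0.73, adjusted p = 2.40e-08) were called higher, 2 of 10, against 13.1% of all genes called higher. PRPS2 (0.28), PAICS (0.26), ADSL (0.22), GART (0.21) and IMPDH2 (0.17) were also above siCtrl at an adjusted p of at most 0.00848, which makes 7 of 10 higher, against 29.7% of all genes. PFAS and GMPS were near the siCtrl level, with 0.03 (95% interval -0.090 to 0.15) and -0.02 (-0.14 to 0.088). PFAS was at 23.3 and 24.8 eRPKM, within the range of the siCtrl libraries (22.8 to 25.1), and its value was -0.00403 with quantile normalization and -0.017 without siRAD21 OHT 48 h replicate 2.

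Against siCtrl OHT cells, which share the active MycER, PFAS was called lower with silencing (1 of 10, against 7.74% of all genes). Its siCtrl OHT libraries had 36.1, 35.5 and 32.7 eRPKM and its siRAD21 OHT libraries 23.3 and 24.8 eRPKM, a change of -0.52 (SE 0.055, adjusted p = 3.40e-06). This call is close to the threshold, with -0.495 without siCtrl OHT 48 h replicate 1 and -0.477 without siRAD21 OHT 48 h replicate 1, and -0.467 with quantile normalization. GMPS (-0.28, adjusted p = 5.68e-04) and GART (-0.18, adjusted p = 0.0114) were also lower at an adjusted p below 0.05, which makes 3 of 10, against 22.8% of all genes. For the other 7 genes the adjusted p was between 0.158 and 0.776.

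At 24 h fewer of the genes passed the thresholds. With OHT in siCtrl cells, 5 genes had an adjusted p below 0.05, all higher (12.5% of all genes), but limma called none (3.68% of all genes). The 5 were IMPDH1 (0.46), PFAS (0.33), PPAT (0.29), PRPS2 (0.27) and PAICS (0.15). At an unadjusted p below 0.05 there were 7, and voom on recovered reads also called 0. IMPDH1 had 48.4 and 43.1 eRPKM in siCtrl and 61.7 and 64.5 eRPKM in siCtrl OHT libraries. Without siCtrl 24 h replicate 1 it was past the threshold, with 0.54.

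With siRAD21 at 24 h, 4 genes had an adjusted p below 0.05, all lower (11.8% of all genes), and again limma called none (2.60% of all genes), with 5 at an unadjusted p below 0.05 and 0 called by voom. PFAS had -0.32, both GART and GMPS -0.22, and PAICS -0.14. Against siRAD21 cells, siRAD21 OHT cells at 24 h had 9 of 10 genes higher at an adjusted p below 0.05 (16.9% of all genes), ATIC again being the one left out. Of these, IMPDH1 (0.55, adjusted p = 6.45e-06) and PFAS (0.55, adjusted p = 1.36e-05) were called, 2 of 10, against 4.29% of all genes. The call of IMPDH1 needs siRAD21 OHT 24 h replicate 2, without which it had 0.496, and with quantile normalization it had 0.45. When siRAD21 OHT was set against siCtrl at 24 h, 5 genes were higher at an adjusted p below 0.05 (17.4% of all genes) and only IMPDH1 was called (0.53, against 6.62% of all genes), with 0.44 without siCtrl 24 h replicate 2, 0.47 without siRAD21 OHT 24 h replicate 2 and 0.49 with quantile normalization. Between siRAD21 OHT and siCtrl OHT cells at 24 h limma called none of the 10 (2.73% of all genes lower), with 1, GMPS, at an unadjusted p below 0.05 and 0 called by voom. The siRNA by OHT interaction at 24 h called none of the 10 genes with limma (0.00% of all genes higher) or with voom, and PFAS and PAICS had an unadjusted p below 0.05.

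The change with siRAD21 was lower at 48 h than at 24 h for 3 genes. Subtracting the 24 h value from the 48 h value gave -0.55 for PFAS (SE 0.081, adjusted p = 3.19e-04) and -0.51 for PRPS2 (SE 0.086, adjusted p = 7.94e-04), both called (2 of 10, against 6.86% of all genes). GMPS, the third gene with an adjusted p below 0.05 (13.5% of all genes lower), had -0.37 (adjusted p = 0.00387). PRPS2 shows this most plainly, with 28.5 and 30.0 eRPKM in siRAD21 at 24 h, where siCtrl had 28.9 and 31.6 eRPKM, and no overlap at 48 h. The size past the threshold depended on single libraries: PFAS had -0.49 without siRAD21 48 h replicate 2, and PRPS2 had -0.45 without siCtrl 24 h replicate 1, -0.47 without siCtrl 48 h replicate 2, -0.48 without siRAD21 24 h replicate 2 and -0.49 without siRAD21 48 h replicate 1. For the change with OHT in siCtrl cells, PPAT had a larger value at 48 h than at 24 h (difference 0.25, adjusted p = 0.0386, as for 2.21% of all genes), and limma and voom called none of the 10 genes (0.714% of all genes called higher), with 5 at an unadjusted p below 0.05.

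PFAS and ATIC also fell with time alone. In siCtrl cells PFAS had 35.4 and 34.7 eRPKM at 24 h and 22.8 to 25.1 eRPKM at 48 h, a change of -0.56 (SE 0.055, adjusted p = 3.68e-06). ATIC had 21.7 and 20.9 eRPKM at 24 h and 11.6 to 15.3 eRPKM at 48 h, or -0.64 (SE 0.137, adjusted p = 0.00189). These are 2 of 10 genes called lower, against 6.91% of all genes. Centring each library on its median took PFAS to -0.48, which left 1 gene called. The replicate block, which pairs libraries by number within each time, took ATIC to -0.49 (limma, adjusted p = 0.0113), which also left 1. The block pairs nothing between 24 and 48 h, and its value for this difference is taken at the level of replicate 1. It therefore does not test what pairing does to this call. In every 48 h group all ATIC libraries were below all ATIC libraries at 24 h, at 11.6 to 18.3 against 20.7 to 24.2 eRPKM. In siCtrl cells alone, 35.5% of all genes tested had every 48 h library below every 24 h library. The share over all groups was not computed. With IMPDH1 (-0.23, adjusted p = 0.00242), 3 genes were lower at an adjusted p below 0.05, as were 27.2% of all genes. GMPS had 0.18 (adjusted p = 0.0142) and PRPS2 had 0.15 (adjusted p = 0.0455). Time and the day of harvest cannot be told apart here.

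Removal of PCR duplicates limits the eRPKM of highly expressed genes. With 2 strands, at most 2 reads per position are kept, which sets a ceiling of 157.7 to 207.3 eRPKM in these libraries, and the highest value of any gene was 137.9 to 174.2 eRPKM. IMPDH2 reached 50.8 to 63.7% of the ceiling, PAICS 31.7 to 49.5%, ADSL 29.3 to 41.7% and ATIC 5.83 to 14.0%. When each value was turned back into the one expected before duplicate removal, taking reads as spread evenly over the exons, the log2 fold change of siRAD21 OHT against siRAD21 at 48 h went from 0.32 to 0.43 for IMPDH2, from 0.54 to 0.66 for PAICS and from 0.80 to 0.91 for IMPDH1. That of PPAT, which reached only 16.6 to 31.4% of the ceiling, went from 0.93 to 1.05. The change of IMPDH2 with OHT in siCtrl cells went from 0.15 to 0.22, still below that of IMPDH1 (0.80 after the step). No call at 48 h among the 10 genes changed with this step, but some values crossed an adjusted p of 0.05: at 48 h the interaction of IMPDH2 (0.21, adjusted p = 0.0419) and the difference of PAICS between siRAD21 OHT and siCtrl OHT cells (from -0.07 to -0.10, adjusted p = 0.0400) passed it. At 24 h GART and ADSL passed it with OHT in siCtrl cells, as did GMPS between siRAD21 OHT and siCtrl OHT cells. Of the differences over time, PPAT and PAICS passed it for siRAD21 and PAICS for OHT, and PRPS2 between 24 and 48 h in siCtrl cells no longer did.

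The genes that feed the pathway, or share its products, were read from 4 fixed lists. At 48 h, 7.78% of all genes tested were called higher with OHT in siCtrl cells and 11.2% lower with siRAD21. In siRAD21 OHT against siRAD21 cells 12.4% were called higher. In the opposite directions 1518, 1883 and 2428 of the 14993 genes were called, in the same order. The counts of the lists below were not tested against these shares. Of 23 tested genes of purine salvage and nucleotide conversion, 2 were called higher with OHT in siCtrl cells at 48 h, AK4 (0.87), a mitochondrial adenylate kinase, and PNP (0.78), which splits purine nucleosides, and 0 were called lower. PRPS1, the sister enzyme of PRPS2, had 0.37 (adjusted p = 7.44e-05) with OHT in siCtrl cells and -0.28 (adjusted p = 0.00155) with siRAD21. In siRAD21 OHT against siRAD21 cells 7 were called higher, with 0.65 for PRPS1 and 0.66 for the salvage enzyme HPRT1. The 1 gene called lower with siRAD21 was NME2 (-0.54), named after its value was seen, a close paralogue of NME1 from which its reads may not be told apart. APRT had 0.13 with OHT (adjusted p = 0.173), and ADSS, on the branch to AMP, had 0.08 (adjusted p = 0.237).

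The list of serine, glycine and folate metabolism holds the supply of glycine and carbon to the ring. With OHT in siCtrl cells 1 of 20 tested genes was called higher, the folate carrier SLC19A1 (0.82), and 1 lower, ALDH1L1 (-0.60), with a median of 0.021. With siRAD21, 7 were called lower and 1 higher (AMT, 0.78, named after its value was seen). PHGDH, which starts serine synthesis, went from 30.0 ± 0.478 eRPKM in siCtrl to 10.5 ± 0.480 eRPKM in siRAD21 cells, a change of -1.48 (adjusted p = 2.20e-10). PSAT1 (-0.99), PSPH (-0.67) and SHMT1 (-1.58), named after their values were seen, were among the 7. In siRAD21 OHT against siRAD21 cells 10 were called higher and 2 lower, with 0.98 for PHGDH, 0.74 for MTHFD2, 0.63 for SHMT2 and 0.57 for MTHFD1L. The interaction was 0.99 for PHGDH (adjusted p = 8.49e-06), which had -0.02 (adjusted p = 0.824) with OHT in siCtrl cells.

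Of the 7 pentose phosphate genes, RPIA, which makes the ribose phosphate that PRPS2 uses, was called higher with OHT (0.94), and none lower. With siRAD21, RPE (-0.74), named after its value was seen, was called lower. Of the 16 pyrimidine and deoxynucleotide genes, 4 were called higher with OHT: DHODH (0.99), UCK2 (0.68), CAD (0.62) and UMPS (0.52), the last named after its value was seen. CAD, DHODH and UMPS build the pyrimidine ring and UCK2 salvages uridine and cytidine. CTPS2, which makes CTP, was called lower (-0.64), from a low level of 2.07 eRPKM in siCtrl cells at 48 h. Its sister enzyme CTPS1, named after its values were seen, was not called but went the other way. CTPS1 had 33.7 eRPKM in siCtrl and 45.9 eRPKM in siCtrl OHT cells at 48 h. Its libraries did not overlap, at 33.2 to 34.3 and 44.4 to 47.1 eRPKM. With siRAD21, 7 of the 16 were called lower and 1 higher (RRM2B, 0.72, named after its value was seen), and TYMS had -0.34 (adjusted p = 0.00258). In siRAD21 OHT against siRAD21 cells, 5 were called higher and 1 lower. The medians of these lists with OHT in siCtrl cells were 0.13 for salvage, 0.095 for pentose phosphate and 0.15 for pyrimidines. That of the 10 purine enzymes was 0.33. With siRAD21 the medians were -0.17 for salvage, -0.23 for serine and folate, -0.15 for pentose phosphate and -0.35 for pyrimidines. The purine enzymes had -0.29. In siRAD21 OHT against siRAD21 cells the lists had 0.37, 0.52, 0.24 and 0.43 in the same order, and the purine enzymes 0.55.

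The 10 genes did not all share a profile over the 8 groups. The correlation of a gene with the mean standardised profile of the 10, a description over 8 group means that includes the gene itself, was 0.85 to 0.97 for PRPS2, PPAT, GART, PAICS, ADSL, IMPDH1, IMPDH2 and GMPS, 0.76 for PFAS and 0.15 for ATIC. PAICS and ADSL were the most alike (r = 0.996 over the 8 group means). PPAT and PAICS, which share the stretch of chromosome 4 shown above, had r = 0.970. Some pairs on different chromosomes were at least as alike, with 0.978 for PPAT and ADSL and 0.980 for GART and PAICS. PFAS and ATIC, the genes that fell with time, had r = 0.716 with each other. Group means share libraries, depth and the time of harvest, so these values carry no test.

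The 5 genes outside the list with the profile most like the mean of the 10 were TRABD (r = 0.997), MCMBP (0.996), BOP1 (0.996), DCTPP1 (0.994) and DHCR7 (0.994), over 8 group means among genes with an SD of at least 0.2. BOP1 is a factor of ribosome assembly, DCTPP1 degrades dCTP and DHCR7 acts at the end of cholesterol synthesis.

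Some of the exons lie over other annotated genes. On GRCh37 the genes span 4:57259528-57301781 (PPAT, minus strand), 4:57301907-57330744 (PAICS, plus), 21:34876238-34915797 (GART, minus), 17:8150936-8173809 (PFAS, plus), 22:40742465-40786467 (ADSL, plus) and 2:216176679-216214496 (ATIC, plus). The others are at 7:128032331-128050040 (IMPDH1, minus), 3:49061758-49066880 (IMPDH2, minus), 3:155588439-155661809 (GMPS, plus) and X:12809474-12842341 (PRPS2, plus). The spans come from GENCODE, and that of PAICS begins slightly before the RefSeq start used for the stretches above. In GENCODE, 1680 exon bases of IMPDH2, 1344 of ADSL and 121 of PPAT are also exons of another gene that has no row in the table, and reads on these bases were not told apart.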

How the data were processed

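RNA-seq was made from total RNA after removal of ribosomal RNA, with unstranded libraries. Per the labels and methods, the authors aligned reads to hg19 with TopHat2 2.0.8, used SAMtools, removed PCR duplicates, counted exonic reads with featureCounts 1.4.5, called differential genes with DESeq2 and deposited RPKM values (eRPKM). DESeq2 was not run here, since the deposited unit is RPKM. Whole reads (tolerance 0.02) and depths were recovered from the values for 22040 genes, and 1359 genes were at 0 throughout. The recovered reads account for 99.978 to 99.985% of the depth.

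Tests used R 4.3.3 and limma 3.58.1 (variance trend, not robust) on log2(eRPKM + 0.5). The 8 groups came from the labels, and each had its own mean. Genes under a mean of 1 eRPKM (8406) were left out. No set test was made. All 10 genes are named whatever their values. Others are 12 genes of the lists, the called genes of each list with the largest changes with OHT in siCtrl cells at 48 h (at most 2 per direction), checks and the 5 most alike profiles. Further genes are marked as named after their values were seen. The genes and lists were chosen with earlier results of these data known. Deviations of same-numbered siCtrl and siCtrl OHT libraries at 48 h correlated at 0.258, 0.130 and 0.157, so these numbers may pair the libraries. The labels do not explain this, and at 24 h the same-numbered libraries correlated at -0.134. The main fit has no replicate block, so its p-values leave any such pairing out. The procedure was tested on simulated reads. Alternatives were 2 pseudocounts, 2 filters, 2 scalings, fewer groups, a replicate block, 2 variance settings, voom on recovered reads, averaging the siRAD21 OHT 48 h libraries, no fold threshold and leaving out each library. Undoing duplicate removal and crossing the siCtrl 24 h numbers were added after seeing the data. Sequences came from RefSeq windows on GRCh37. Figures were drawn with matplotlib 3.10.9 in Python 3.11.15, with numpy 2.4.6 and pandas 2.3.3.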

Additional observations from a re-analysis of the deposited data

Results flagged for a closer look

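The following values are differences between the effects in different groups, each tested in the model itself with limma. At 48 h the change with OHT was larger in siRAD21 than in siCtrl cells for PPAT (0.38, standard error 0.062, adjusted p = 9.57e-04), PFAS (0.35, standard error 0.077, adjusted p = 0.00704), PAICS (0.22, standard error 0.056, adjusted p = 0.0164), GMPS (0.31, standard error 0.074, adjusted p = 0.0120) and PRPS2 (0.50, standard error 0.082, adjusted p = 0.00105).

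Between 24 and 48 h the change with siRAD21 became lower for PFAS (-0.55, adjusted p = 3.19e-04), GMPS (-0.37, adjusted p = 0.00387) and PRPS2 (-0.51, adjusted p = 7.94e-04). The change of PPAT with OHT in siCtrl cells became larger (0.25, adjusted p = 0.0386). No group has enough libraries for a search for outlying samples.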

How the results depend on the processing

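Of the 84 single-gene values reported, all kept their direction and their call under a mean filter of 5 eRPKM, no filter, a pseudocount of 0.1, no variance trend, robust moderation, fits of only the groups compared, voom on recovered reads and averaging of the siRAD21 OHT 48 h libraries. Dropping the fold threshold moved 49 of the 84 past the test, which follows from choosing values by adjusted p. Of the settings that kept the threshold and all libraries, quantile normalization changed the most values (9 lost their call and 2 changed direction). With it, calls were 1 for OHT in siCtrl cells at 48 h, 1 and 4 for siRAD21 OHT against siRAD21 at 24 and 48 h, 0 for siRAD21 OHT against siCtrl at 24 h, 0 for siRAD21 OHT against siCtrl OHT at 48 h and 0 for the interaction at 48 h. It also turned IMPDH1 with siRAD21 at 48 h to 0.011 and PFAS in siRAD21 OHT against siCtrl at 48 h to -0.0040331. The interaction count was 0 as well with a pseudocount of 1 and with median centring, which left 1 gene called lower in siCtrl cells between 24 and 48 h. With duplicates undone, 1 gene (IMPDH1) was called with OHT at 24 h. Without a fold threshold, counts at 24 h were 5 (OHT in siCtrl), 4 (siRAD21), 9 (siRAD21 OHT against siRAD21) and 5 (siRAD21 OHT against siCtrl). At 48 h they were 9, 8, 9 and 7 in the same order, 3 against siCtrl OHT and 5 for the interaction, with 1 for the OHT effect over time and 2 higher in siCtrl cells with time. The cause of these changes was not tested.

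The replicate block, which pairs libraries by number within each time, changed 1 call among the 10 genes. ATIC between 24 and 48 h in siCtrl cells had -0.49 (limma, adjusted p = 0.0113), leaving 1 gene called lower. As the block pairs nothing between the times, this value is that at the level of replicate 1 and does not test pairing. Crossing the siCtrl 24 h numbers, whose deviations correlated negatively with those of OHT libraries, also left 1 there, and over all genes called with OHT at 24 h gave 1340, against 1324 with the block and 1316 without.

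Leaving out each library in turn gave 0 to 1 calls for OHT in siCtrl cells at 24 h, 1 to 2 for siRAD21 OHT against siRAD21 and 0 to 1 against siCtrl at 24 h, 6 to 7 for siRAD21 OHT against siRAD21, 0 to 1 for siRAD21 OHT against siCtrl OHT and 0 to 1 for the interaction at 48 h, and 1 to 2 for the siRAD21 effect over time. ATIC ranged from -0.00043 to 0.25 with OHT, from -0.14 to 0.25 with siRAD21 and from -0.25 to 0.13 for siRAD21 OHT against siRAD21, and PFAS from -0.017 to 0.073 for siRAD21 OHT against siCtrl at 48 h. Where this left a group with 1 library, that library was taken to vary like the other groups. ATIC, with 282 to 677 reads in a library, had the lowest count of the 10 genes.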
